A study of Mus musculus with 6 samples.

Results

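The genes described here are the glucocorticoid receptor and 7 genes named with it as its targets or their relatives: Nr3c1, Tsc22d3, Fkbp5, Dusp1, Sgk1, Klf9, Ddit4 and Zfp36l3. They were taken by symbol, 1 entry each, which gave 8 of the 55394 genes with values. The values come from SMART-seq of group 2 innate lymphoid cells (ILC2s), tissue-resident lymphocytes that lack antigen receptors and make type 2 cytokines. The cells were sorted from lungs of C57BL/6 wild-type pups, 1000 cells to a library. In 3 libraries (Con) the pups came from control dams, and in the other 3 (Abx) from dams that drank a cocktail of ampicillin, metronidazole, neomycin and vancomycin between gestation days 10 and 14. The drugs were withdrawn after that window, and no transgene or deletion was involved. The comparison of Abx with Con asks whether the receptor and the genes that answer to it, which report on exposure to stress hormone, differ in neonatal ILC2s after maternal antibiotics. The gate was CD45+ Lin- CD90.2+ CD25+. The age of the pups behind these libraries, their sex and the number of animals pooled are not given in the sources used here, so a p-value below measures the spread between libraries, which may be technical.

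Glucocorticoids are steroid hormones of the adrenal cortex. In the cytoplasm their receptor is held by a chaperone complex built around Hsp90. On binding hormone it enters the nucleus, where it raises genes that carry its response element and restrains inflammatory genes driven by AP-1 and NF-kB. Tsc22d3, Fkbp5, Dusp1, Sgk1, Klf9 and Ddit4 are among the genes most often used to read that response, in lymphocytes and elsewhere.

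Levels are FPKM as deposited, read fragments scaled by a gene's exon length and by a library's sequencing output, so they can be set side by side between genes. The sum of all FPKM lay between 420941 and 489262 in the 6 libraries, and 7074 to 9203 genes reached 1 FPKM in a library, with fewer in each Abx library than in any Con library. The number of reads is unknown, so no counting error can be given. A level of 0 is written as listed at 0, because a low value need not mean an absent transcript. Fkbp2, a widely expressed relative of Fkbp5, was at 0.05 FPKM in Abx library 2 and at 34.5 FPKM or more in the other 5. Of 16 ILC2 markers 14 were in the comparison, 6 fitted higher and 8 lower, with Icos, Areg, Arg1 and Calca lower in all Abx libraries at an unadjusted p under 0.05. Over all genes tested, 6.25% were lower at that p, and 8.73% had all Abx libraries below all Con libraries. Ptprc was the 1 marker with all Abx libraries above, beside 8.49% of all genes tested. The summed level of the 16 was 4330 to 4541 FPKM in Con against 3269 to 4017 in Abx. Gata3 was at 33.9 FPKM or more in every library, while Ptgdr2 was listed at 0 throughout and Il1rl1 stayed at or under 2.94 FPKM. Of 5 sex-linked transcripts listed, Xist and Eif2s3y separated the groups clearly. Xist was at 3.78, 4.38 and 5.09 FPKM in Con and listed at 0 in all Abx libraries, and the Y-linked Eif2s3y was at 0.03, 0.58 and 0.86 FPKM in Con against 22.8, 11.85 and 24.4 FPKM in Abx. The other Y-linked genes were lower and less clear. For Ddx3y, Abx library 1 (0.07 FPKM) lay under Con library 1 (0.38 FPKM), while Abx libraries 2 and 3 reached 7.07 and 5.0 FPKM. For Uty, Con library 3 (1.55 FPKM) lay above Abx libraries 1 and 3 (1.51 and 0.65 FPKM) but under Abx library 2 (4.41 FPKM). Kdm5d exceeded 0.01 FPKM only in Abx library 3, at 2.68 FPKM. Because Xist and Eif2s3y differed by group, exposure and sex cannot be told apart in any comparison below. For bulk RNA such as this, fewer cells of a type and less RNA per cell cannot be told apart either.

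The receptor binds a palindrome made of a 6-base site, AGAACA, and its reverse complement TGTTCT, spaced by any 3 bases (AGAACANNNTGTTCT). RefSeq (GRCm38.p6) gave 14 promoter windows for 7 of the 8 genes, each of 300 bases, from 250 before to 50 after a transcript start. The 6-base site on either strand was in 4 of these 14 windows (28.6%), against 19.0% of 32851 windows over all genes. Those 4 windows belonged to Sgk1 and Tsc22d3 alone, and Sgk1 gave 6 of the 14 windows, so the share does not describe the genes evenly. The complete palindrome with no mismatch was in only 3 of the 32851 windows (0.009%), which belong to Acnat2, Sgk1 and Gm35041. Shown are that Sgk1 window and, for comparison, the windows of Fkbp5 and Klf9, whose levels were higher in all Abx libraries than in all Con libraries. Capitals mark every 6-base site or palindrome found.
Sgk1, GRCm38.p6, chr10:21993640-21993939, plus strand: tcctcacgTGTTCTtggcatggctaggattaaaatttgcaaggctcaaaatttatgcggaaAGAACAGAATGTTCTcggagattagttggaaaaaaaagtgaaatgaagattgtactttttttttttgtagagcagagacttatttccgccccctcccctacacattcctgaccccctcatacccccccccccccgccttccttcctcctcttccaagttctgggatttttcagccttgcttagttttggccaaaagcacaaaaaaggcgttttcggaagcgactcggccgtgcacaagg
Fkbp5, GRCm38.p6, chr17:28486100-28486399, minus strand: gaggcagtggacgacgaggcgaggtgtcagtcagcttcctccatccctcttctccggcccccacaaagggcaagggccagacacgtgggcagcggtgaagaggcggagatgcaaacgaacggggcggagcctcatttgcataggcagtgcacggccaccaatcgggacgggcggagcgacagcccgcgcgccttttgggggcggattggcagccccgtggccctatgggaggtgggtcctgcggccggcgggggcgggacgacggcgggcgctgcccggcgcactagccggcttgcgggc
Klf9, GRCm38.p6, chr19:23140976-23141275, plus strand: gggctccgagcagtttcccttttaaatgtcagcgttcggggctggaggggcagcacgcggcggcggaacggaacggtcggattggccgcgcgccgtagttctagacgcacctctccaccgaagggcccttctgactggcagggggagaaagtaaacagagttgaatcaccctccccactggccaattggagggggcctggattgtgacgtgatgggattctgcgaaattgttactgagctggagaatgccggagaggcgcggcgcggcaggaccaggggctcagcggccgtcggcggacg
The Sgk1 window held 6-base sites that begin 242, 189 and 180 bases before the start. The last 2 of them form the palindrome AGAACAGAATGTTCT, while the Fkbp5 and Klf9 windows held none. This says only that the letters are not in these windows, and response elements of Fkbp5 in particular are known to lie in its introns. With up to 2 mismatches allowed, the palindrome was in 2 of the 14 windows, both of Sgk1, and in 1.84% of all windows. Sgk1 was one of the least detected of the 8 genes, as given below.

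The receptor itself had nearly the same mean level in both groups, and its target genes did not lie in a common direction. Fkbp5 and Klf9 lay higher in every Abx library than in any Con library, Dusp1, Tsc22d3, Ddit4 and Sgk1 had lower means in Abx with overlapping libraries, and Zfp36l3 was listed at 0 in all 6. The groups were compared on log2(FPKM + 1) with limma, two-sided, over the 8718 genes that reached 1 FPKM in at least 3 libraries. The differences given below are on this log2 scale, Abx minus Con, and those of low genes are understated by it. Of the 8 genes 6 passed the filter, with 3 fitted higher and 3 lower. A call needed a fold change over 2 with an adjusted p under 0.05, and none of them met both. Over all genes 5 were called (0.0574%). At an unadjusted p under 0.05 there was 1 of the 6 higher, Fkbp5, and 0 lower, against 4.74% and 6.25% of all genes tested. The libraries of the groups did not overlap for 2 of the 6, Fkbp5 and Klf9, both with Abx above, against 8.49% of all genes with Abx above and 8.73% with Abx below. The median difference of the 6 genes was -0.18, beside -0.06 over all genes tested. Leaving out Con library 3 turned this median to 0.19.

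**Figure D1:**
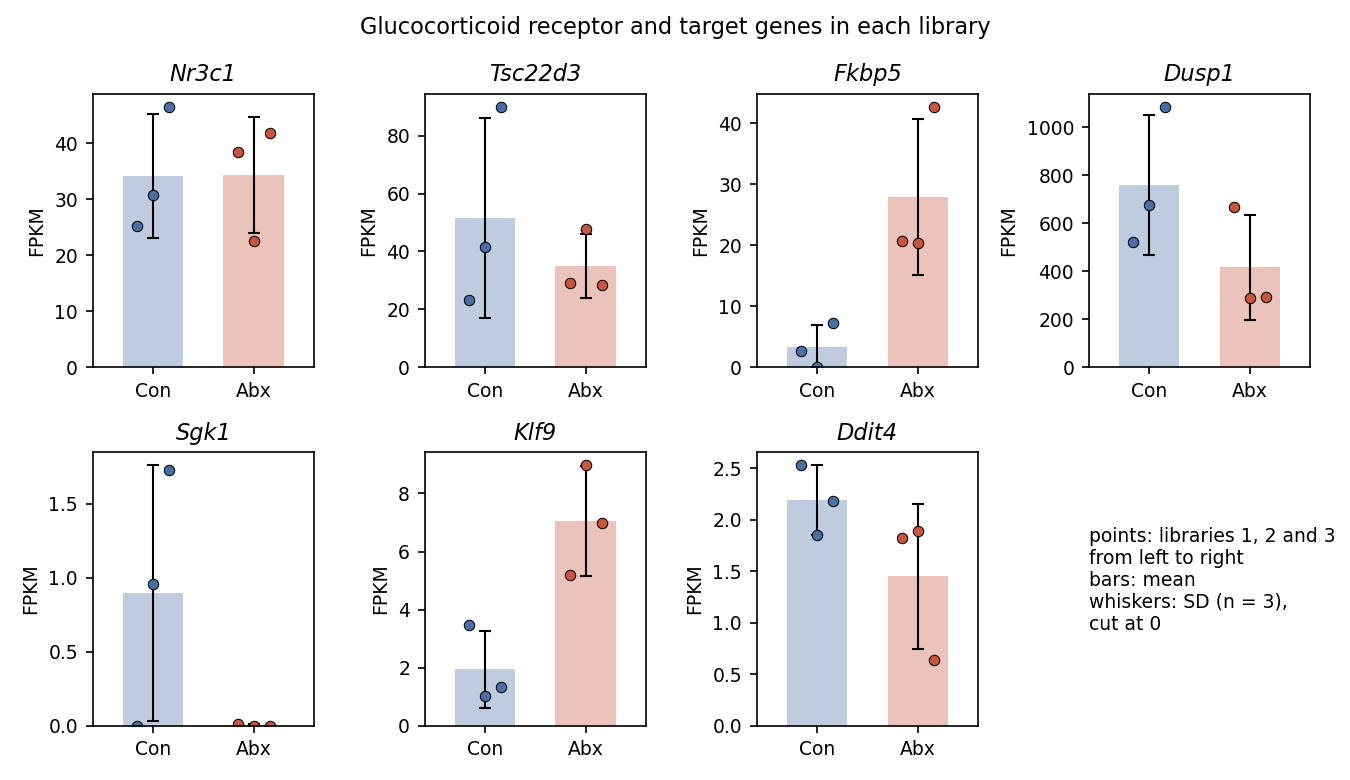
FPKM of 7 of the 8 genes in each library (vertical axes, linear from 0, one scale per gene; points are libraries 1, 2 and 3 from left to right, bars are means and whiskers the SD of 3 libraries), with Zfp36l3 left out because it was listed at 0 throughout. For Fkbp5 (0.05 to 7.17 FPKM in Con, 20.35 to 42.7 in Abx) and Klf9 (1.03 to 3.46 and 5.2 to 8.98) the points of the groups do not overlap, and for Nr3c1 the bars are of about the same height.

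Nr3c1 (ENSMUSG00000024431; GENCODE M21 on GRCm38, chromosome 18 from 39410545 to 39519421, minus strand) encodes the glucocorticoid receptor. It was at 25.2, 30.7 and 46.6 FPKM in Con libraries 1 to 3 and at 38.55, 22.5 and 41.9 FPKM in Abx libraries 1 to 3. The highest and the second lowest of the 6 values were in Con and the lowest was in Abx, so the groups overlapped. The means were 34.2 ± 11.1 FPKM in Con against 34.3 ± 10.4 in Abx (SD, n = 3 each), at about the 79.7th percentile of the genes tested. The fitted difference was 0.0038 (SE 0.41, limma adjusted p = 0.998). Its 95% interval, from -0.94 to 0.95, ends just short of a 2-fold difference on this scale in either direction. Over the 6 libraries the genes whose level followed Nr3c1 most closely were Ints9 (Pearson r = 0.977), Slc39a3 (r = 0.975) and Elmo2 (r = 0.963), among 31 genes with r over 0.9. With only 6 libraries, which fall into the Con and Abx groups, and with depth unknown, these values are a description only.

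Fkbp5 (ENSMUSG00000024222; chromosome 17 from 28399094 to 28517527, minus strand) encodes FKBP51, a co-chaperone that joins the receptor complex and lowers its affinity for hormone, which makes the gene a feedback inhibitor of its own inducer. Its level was 2.63, 0.05 and 7.17 FPKM in Con against 20.7, 20.35 and 42.7 in Abx. Every Abx library was above every Con library, and the lowest Abx value was well over the highest Con value. The mean was 3.28 ± 3.6 FPKM in Con against 27.9 ± 12.8 in Abx (SD, n = 3 each), a ratio of 8.51. On the log2 scale the difference was 3.12 (SE 0.87, 95% interval 1.08 to 5.15), with an unadjusted limma p of 0.00796. The limma adjusted p over all genes tested was 0.184, so Fkbp5 was not called, and it held rank 376 of the 8718 genes by p. Without Con library 2, where the gene was nearly at 0, the difference was 2.32 (limma adjusted p = 0.611) and the ratio of means 5.7. Without Con library 3, the highest of Con, they were 3.80 (limma adjusted p = 0.479) and 20.8.

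Klf9 (ENSMUSG00000033863; chromosome 19 from 23141226 to 23168134, plus strand) encodes a Krüppel-like zinc finger factor that glucocorticoids and thyroid hormone induce in many tissues. It was at 3.46, 1.03 and 1.34 FPKM in Con against 5.2, 8.98 and 6.98 in Abx. The groups did not overlap, though Con library 1 and Abx library 1 lay close together. The means were 1.94 ± 1.32 and 7.05 ± 1.89 FPKM (SD, n = 3 each), a ratio of 3.63, which was 5.95 without Con library 1. The fitted difference was 1.51 (SE 0.71, limma adjusted p = 0.493), and its 95% interval from -0.14 to 3.16 includes 0. For Fkbp5 and for Klf9 an exact two-sided permutation test gave p = 0.1, the smallest that 3 libraries against 3 allow.

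Dusp1 (ENSMUSG00000024190; chromosome 17 from 26505590 to 26562128, minus strand) encodes a dual-specificity phosphatase that switches off p38, JNK and ERK kinases and is a main route by which glucocorticoids limit inflammatory signaling. It was the most abundant of the 8 genes in every library, at about the 98.9th percentile of the genes tested. The levels were 519.8, 675 and 1087 FPKM in Con against 669, 287 and 294 in Abx. Abx libraries 2 and 3 lay under every Con library, while Abx library 1 was level with Con library 2. Means were 760.5 ± 292.9 FPKM in Con against 416.6 ± 218.7 in Abx (SD, n = 3 each). The fitted difference of -0.92 (SE 0.40, 95% interval -1.85 to 0.01) had a limma adjusted p of 0.456. Dusp1 shares 11 exon bases with Ergic1 on the other strand, and the libraries do not mark strand.

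Dusp1 is also an immediate-early gene, which stress of the cells or growth signals raise within minutes without any steroid. Fos, the best known gene of that class, was at 1692, 2416 and 4222 FPKM in Con against 4190, 1202 and 2473 in Abx. Con library 3 was thus the highest and Abx library 2 the lowest for Dusp1 and for Fos alike. Otherwise the orders differed, since Abx library 3 lay under every Con library for Dusp1 but above Con libraries 1 and 2 for Fos. Zfp36, which encodes tristetraprolin, also had its lowest value in Abx library 2, at 158.5 FPKM. It had its highest values in Abx library 1 (813 FPKM) and Con library 3 (752 FPKM). The summed level of 21 immediate-early genes was 8241, 9959 and 13171 FPKM in Con against 11408, 5532 and 7472 in Abx, and its part in the level of Dusp1 was not tested.

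Tsc22d3 (ENSMUSG00000031431; chromosome X from 140539528 to 140600659, minus strand) encodes GILZ, a leucine zipper protein that binds NF-kB and AP-1 and is a standard marker of receptor activity in lymphocytes. It was at 23.1, 41.6 and 90.1 FPKM in Con against 28.95, 47.85 and 28.5 in Abx. Con held the lowest and the highest library, and all 3 Abx libraries lay between them. The mean was 51.6 ± 34.6 FPKM in Con against 35.1 ± 11 in Abx (SD, n = 3 each), with a fitted difference of -0.37 (SE 0.52, 95% interval -1.59 to 0.85, limma adjusted p = 0.853). The sign rested on Con library 3, since the difference was 0.13 without it. Its closest followers over the 6 libraries were Arl4c (r = 0.971), Jmjd1c (r = 0.971) and Lrrfip1 (r = 0.958), among 30 genes with r over 0.9. The gene is X-linked, and the groups differed in Xist as given above.

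Ddit4 (ENSMUSG00000020108; chromosome 10 from 59949669 to 59951834, minus strand) encodes REDD1, which inhibits mTORC1 and is induced by glucocorticoids, hypoxia and energy stress. It was low, at 2.53, 1.85 and 2.18 FPKM in Con against 1.82, 1.89 and 0.64 in Abx. Abx library 2 lay just above Con library 2, and the other Abx libraries lay under all of Con. The means were 2.19 ± 0.34 and 1.45 ± 0.70 FPKM (SD, n = 3 each). The fitted difference was -0.42 (SE 0.56, 95% interval -1.71 to 0.87, limma adjusted p = 0.843). Quantile normalization turned its sign, to 0.25.

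Sgk1 (ENSMUSG00000019970; chromosome 10 from 21882184 to 21999903, plus strand) encodes a serum- and glucocorticoid-regulated kinase that controls ion channels and FOXO factors. It was listed at 0, 0.96 and 1.73 FPKM in Con against 0.01, 0 and 0 in Abx. Con libraries 2 and 3 were the highest, and Con library 1 lay with the Abx libraries at or near 0, so the groups overlapped. Sgk1 was under the filter on low values, and an exact two-sided permutation test on log2(FPKM + 1) gave p = 0.4. Zfp36l3 (ENSMUSG00000059334; chromosome X from 53774048 to 53776394, minus strand) is an intronless rodent relative of Zfp36 known from the placenta. It was listed at 0 in all 6 libraries, so it has no difference to test.

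Taking the 8 genes within each library, Dusp1 came first in all 6, with Nr3c1 and Tsc22d3 next to it except in Abx library 3, where Fkbp5 held place 2 and Tsc22d3 place 4. In Con library 2 Fkbp5 held place 7, behind Klf9, Ddit4 and Sgk1. Among the Con libraries, library 3 had the highest value for Nr3c1, Tsc22d3, Fkbp5, Dusp1 and Sgk1, and library 1 for Klf9 and Ddit4. The spread within Con was widest, relative to its mean, for Fkbp5, whose SD of 3.6 FPKM exceeded the mean of 3.28 FPKM.

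**Figure D2:**
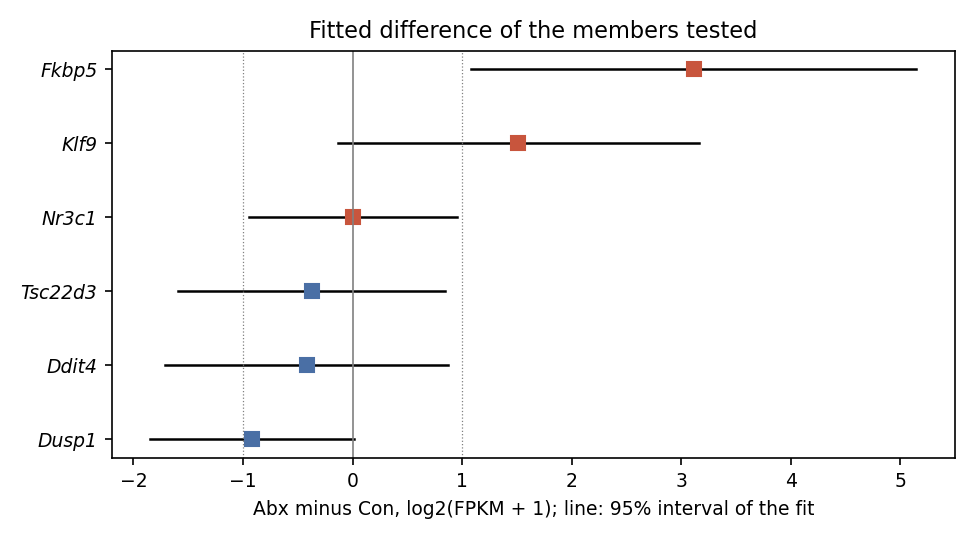
Fitted difference of log2(FPKM + 1), Abx minus Con, for the 6 genes tested (horizontal axis; squares are limma estimates, red above 0 and blue below, lines are 95% intervals, dotted lines mark a 2-fold change). Only the interval of Fkbp5, from 1.08 to 5.15, lies off 0, that of Klf9 reaches down to -0.14 and that of Dusp1 up to 0.01, and none of the 6 was called after adjustment.

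The genes that hold, serve and supply the receptor were read from lists around it. Of 12 chaperones and co-chaperones of the receptor complex, 11 were tested, 8 fitted higher and 3 lower, with a median difference of 0.24 and 0 called. An unadjusted p under 0.05 was found for 2 higher genes and 1 lower one, beside 4.74% and 6.25% of all genes tested. The libraries did not overlap for 1 with Abx above and 1 with Abx below, beside 8.49% and 8.73% of all genes tested. Hsp90aa1, the inducible Hsp90 that keeps the receptor ready for hormone, was at 133, 122 and 183 FPKM in Con against 269, 166 and 277 in Abx, with overlap (0.68, SE 0.28, limma adjusted p = 0.438). Its constitutive partner Hsp90ab1 had a difference of 0.24 (limma adjusted p = 0.813) and the Hsc70 gene Hspa8 one of 0.16 (limma adjusted p = 0.836). Dnaja1, an Hsp40 that loads clients onto Hsp70, was at 101, 75.6 and 102 FPKM in Con against 20.5, 43.7 and 35.6 in Abx. All Abx values were lower, yet the gene was not called (-1.50, SE 0.36, limma adjusted p = 0.128). Stub1, the ubiquitin ligase CHIP that directs chaperone clients to degradation, was at 30.1, 23.0 and 26.2 FPKM in Con against 63.3, 54.6 and 36.7 in Abx, without overlap (0.91, limma adjusted p = 0.372). Bag1, a co-chaperone that dampens receptor activity, had a difference of -0.57 (limma adjusted p = 0.710). Fkbp4 encodes FKBP52, which takes the place of FKBP51 in the active complex, and it stayed under 1 FPKM in every library, where Fkbp5 reached 20.35 FPKM or more in each Abx library.

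Of 20 coregulators 15 were tested, with 7 fitted higher and 8 lower, a median of -0.07 and 0 called. At an unadjusted p under 0.05 there were 0 in either direction, beside 4.74% higher and 6.25% lower of all genes tested. The libraries did not overlap for 1 with Abx above and 2 with Abx below, beside 8.49% and 8.73% of all genes tested. The corepressor Ncor1, which docks histone deacetylases, was at 30.6, 24.8 and 29.5 FPKM in Con against 34.0, 36.0 and 49.4 in Abx, without overlap (0.46, limma adjusted p = 0.694). Hdac2 (0.70), Trim28 (0.79) and Cbx3 (0.08), the most abundant others, had limma adjusted p-values of 0.706, 0.550 and 0.979. Nrip1 and Ncoa3, picked after their values were seen, had all Abx libraries below Con. Nrip1, a ligand-dependent corepressor, was at 18.5, 15.3 and 22.3 FPKM in Con against 11.4, 1.06 and 10.1 in Abx (-1.57, limma adjusted p = 0.542). The p160 coactivator Ncoa3 was at 8, 17.8 and 10.96 FPKM against 5.41, 2.95 and 4.44 FPKM (-1.29, limma adjusted p = 0.537).

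Steroid supply was measured on 15 genes, of which 6 were listed at 0 in every library and 4 were tested, 2 fitted higher and 2 lower, with a median of -0.22 and 0 called. Hsd11b1, the enzyme that regenerates active corticosterone inside cells, was clearly detected, at 58.6, 43.1 and 42.1 FPKM in Con against 21.4, 63.6 and 30.65 in Abx. Its groups overlapped, with Abx library 2 the highest of the 6 (-0.44, limma adjusted p = 0.787). The opposing enzyme Hsd11b2 was listed at 0, and the mineralocorticoid receptor Nr3c2, which binds the same hormone, did not exceed 0.01 FPKM. Cyp11a1, which makes pregnenolone from cholesterol, was at 11.4, 4.47 and 8 FPKM in Con against 0.02, 0.76 and 0 in Abx. All Con values exceeded all Abx values, but the gene was not called (-2.80, SE 0.65, limma adjusted p = 0.122). It was the only 1 of the 4 tested without overlap, beside 8.73% of all genes tested with Abx below. Fdx1, the electron donor of Cyp11a1, had a difference of 0.83 (limma adjusted p = 0.776) and the steroid exporter gene Abcb1b had a limma adjusted p of 1.0. Cyp17a1, Cyp21a1, Cyp11b1, Hsd3b1 and Hsd3b2, which encode further enzymes of steroid synthesis, were listed at 0 in all 6 libraries.

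**Figure D3:**
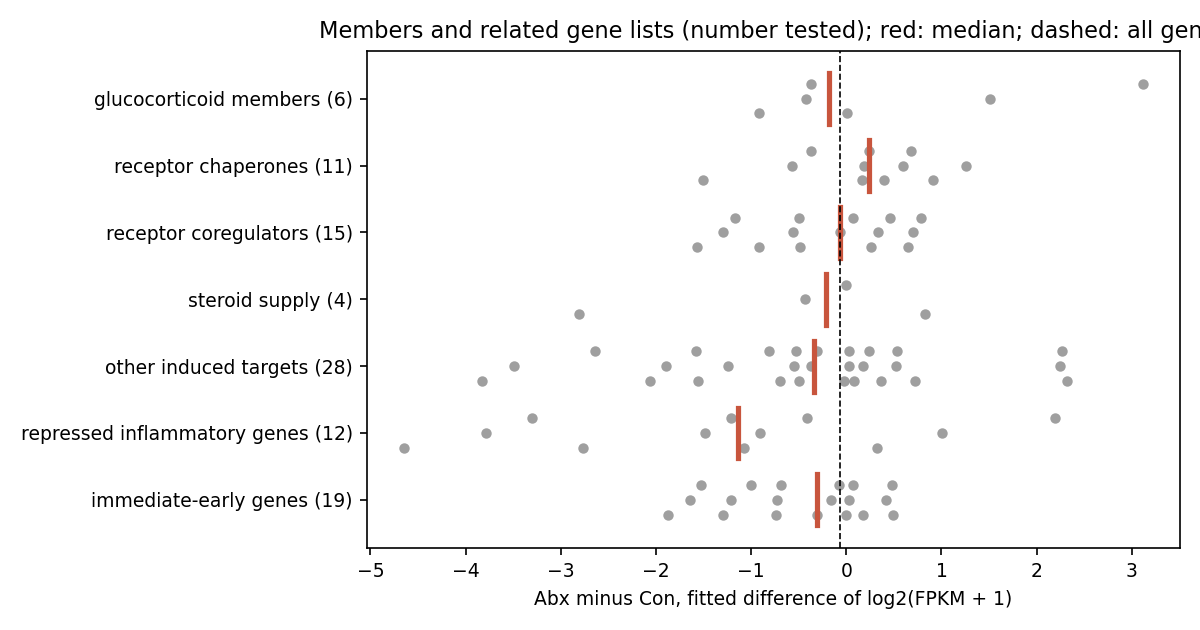
Fitted differences of log2(FPKM + 1), Abx minus Con (horizontal axis), of the genes tested in each list (grey points, one per gene; number tested in parentheses; red bars are list medians, the dashed line is the median of all genes tested at -0.06). Among the lists drawn, which leave out cell type markers and sex-linked genes, medians run from -1.14 for repressed inflammatory genes to 0.24 for receptor chaperones, and the points of each drawn list lie on both sides of 0.

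Beyond the 8 genes, 46 further genes that glucocorticoids induce in some tissue were listed, and 28 were tested. Of these, 12 were fitted higher and 16 lower, with a median of -0.34 and 0 called. At an unadjusted p under 0.05 there were 3 higher and 6 lower, and the libraries did not overlap for 4 with Abx above and 6 with Abx below. Over all genes tested, 4.74% were higher and 6.25% lower at that p, and 8.49% and 8.73% did not overlap with Abx above and below. The higher ones included Nfkbia, which encodes the inhibitor of NF-kB. It was at 0.67, 0.39 and 0.61 FPKM in Con against 4.14, 6.89 and 10.4 in Abx (2.32, SE 0.64, limma adjusted p = 0.181). The metallothionein Mt1 was at 2.59, 5.95 and 0.39 FPKM in Con against 13.0, 22.5 and 10.2 in Abx (2.24, SE 0.82, limma adjusted p = 0.336). Pik3ip1, which restrains PI3 kinase, was at 2.53, 0 and 9.06 FPKM in Con against 10.15, 15.9 and 19.9 in Abx (2.26, SE 0.95, limma adjusted p = 0.440). These 3 genes, like Fkbp5 and Klf9, had all Abx libraries above all Con libraries. Per1, the clock gene with a well-known response element, was at 0.03, 0 and 0 FPKM in Con against 1.33, 1.2 and 0.53 in Abx, which left it under the filter.

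The 16 induced genes fitted lower, beside 4621 of all 8718 genes tested, included some of the most abundant of the list. Cdkn1a, the cell cycle inhibitor p21, was at 595, 582 and 677 FPKM in Con against 213, 258 and 321 in Abx (-1.24, SE 0.21, limma adjusted p = 0.0911). Gadd45b, an NF-kB and stress-responsive gene and the most abundant of the list, was at 1901, 2029 and 2639 FPKM in Con against 1492, 1497 and 1445 in Abx (-0.55, SE 0.18, limma adjusted p = 0.256). The groups of both genes did not overlap. The G protein regulator Rgs2 was at 29.1, 45.8 and 4.61 FPKM in Con against 0, 0.53 and 0.8 in Abx (-3.83, SE 0.96, limma adjusted p = 0.141). Arl4d, a small GTPase of the ARF family, was at 5.13 FPKM or more in Con and 0.21 FPKM or less in Abx (-3.49, SE 0.73, limma adjusted p = 0.0967). Zfp36 (-0.31, limma adjusted p = 0.893) and the antiproliferative gene Btg2 (0.03, limma adjusted p = 0.983), also abundant, overlapped. Cebpd (-2.64, limma adjusted p = 0.16), a C/EBP transcription factor, and Cxcr4 (-1.58, limma adjusted p = 0.182), the receptor for CXCL12, were also lower in all Abx libraries. Of the genes under the filter, Zbtb16 stayed at or under 0.2 FPKM and Per2 at or under 0.11 FPKM, and the liver genes Tat and G6pc were listed at 0. Others were high in 1 or 2 libraries only, such as Pck1 at 11.9 FPKM in Abx library 1, Sesn1 at 29.2 FPKM in Abx library 1 and Tnfaip3 at 27.3 and 14.1 FPKM in Abx libraries 1 and 2. These 3 were picked after their values were seen.

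**Figure D4:**
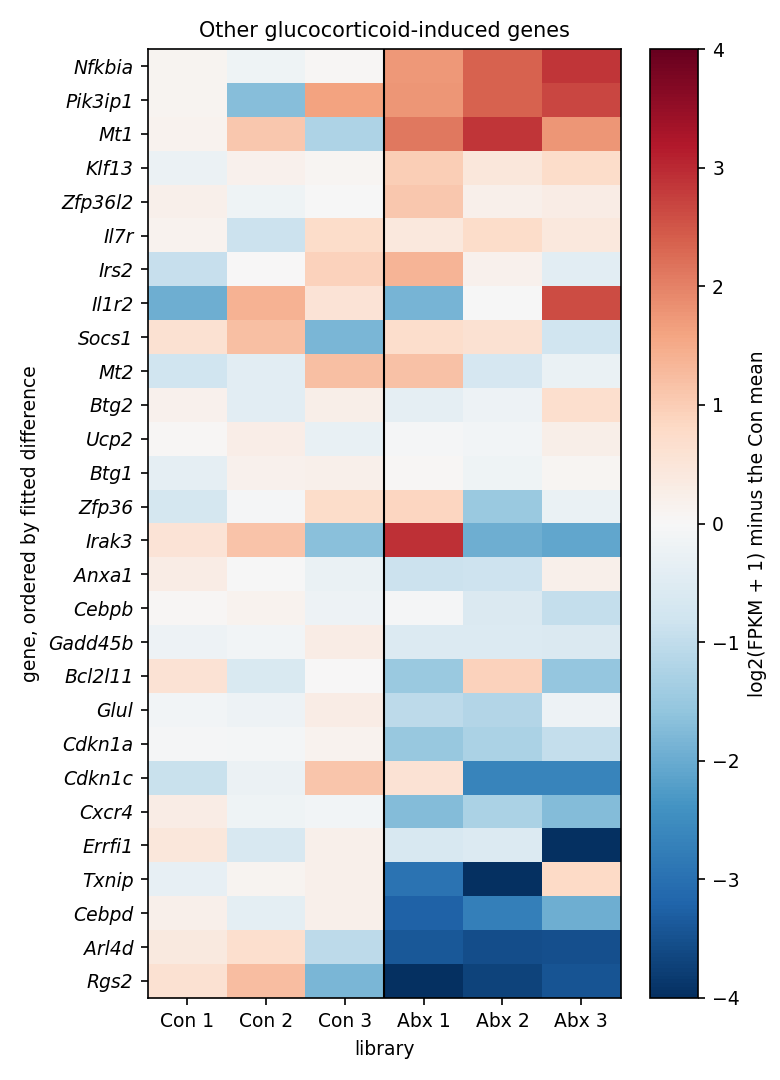
Level of the 28 further induced genes tested (rows, ordered by fitted difference) in each library (columns), as log2(FPKM + 1) minus the mean of the Con libraries; red is higher and blue lower, and the colour scale stops at 4 in either direction. Nfkbia, Pik3ip1 and Mt1 at the top are red in all 3 Abx libraries, Cebpd, Arl4d and Rgs2 at the bottom are blue in all 3, and the genes between them show no common direction.

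Inflammatory genes that the receptor is known to restrain were listed as well, 22 in all with 12 tested, 3 fitted higher and 9 lower. Their median was -1.14, with 0 called, and an unadjusted p under 0.05 was reached by 2 genes on the higher side and 6 on the lower, beside 4.74% and 6.25% of all genes tested. Csf2, which encodes GM-CSF, a major ILC2 product, was at 3512, 3242 and 4259 FPKM in Con against 1344, 2072 and 1401 in Abx (-1.21, SE 0.22, limma adjusted p = 0.0911). The neutrophil chemokine Cxcl2 was at 1286, 1068 and 2048 FPKM in Con against 744, 666 and 613 in Abx (-1.07, limma adjusted p = 0.130). For both, every Abx library was lower. Over the list, 2 genes had all Abx libraries above Con and 4 had them below, beside 8.49% and 8.73% of all genes tested. The chemokine genes Ccl3 (-4.64, limma adjusted p = 0.283) and Ccl4 (-3.79, limma adjusted p = 0.346), the cyclooxygenase gene Ptgs2 (-3.30, limma adjusted p = 0.190) and Il1b (-2.76, limma adjusted p = 0.365) had negative differences too. Cxcl1, of the same family as Cxcl2, had a difference of -1.49 (limma adjusted p = 0.5). Ccl5 lay the other way, at 74.7, 52.5 and 45.3 FPKM in Con against 128, 98.9 and 116 in Abx (1.0, SE 0.29, limma adjusted p = 0.190), as did Il4, which was listed at 0 in Con and was at 3.16, 2.57 and 5.46 FPKM in Abx (limma adjusted p = 0.105). Il5 (0, 57.7 and 24.5 FPKM in Abx libraries), Il13 (0, 10.8 and 10.1 FPKM) and Il9 (8.98, 0 and 1.3 FPKM) were listed at 0 in Con and fell under the filter, so the count and the median leave them out. The type 2 cytokine genes of this list were named by the study from these libraries, so their direction is not independent.

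AP-1 factors, which drive many of these inflammatory genes, belong to the immediate-early class. Of its 21 genes 19 were tested, 6 fitted higher and 13 lower, with a median of -0.31, 0 called, and an unadjusted p under 0.05 for 5 lower and 0 higher genes, beside 6.25% and 4.74% of all genes tested. Atf3 (-1.87, limma adjusted p = 0.0911), Nr4a2 (-1.52, limma adjusted p = 0.0911), Nr4a1 (-1.21, limma adjusted p = 0.113), Ier3 (-1.01, limma adjusted p = 0.127) and Junb (-0.73, limma adjusted p = 0.226) were lower in all Abx libraries. So was Nr4a3, named to complete the count (-0.69, limma adjusted p = 0.693). The groups thus did not overlap for 6 with Abx below and 0 with Abx above, beside 8.73% and 8.49% of all genes tested. Fos (-0.16, limma adjusted p = 0.936) and Ier2 (-0.07, limma adjusted p = 0.947), both among the most abundant, overlapped. The part of this class in the levels of the inflammatory genes was not tested.

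Genes listed as markers of other cells also differed between the groups, although the lineage stain that the sort excluded held CD3e, CD4, CD8a, B220 and CD11b among others. Of 12 B cell markers 10 were tested, 9 fitted higher and 1 lower, and 2 of them, Ly6d and H2-Ab1, were called higher, against 0.0574% of all genes called. With a pseudocount of 0.1 or 0.01, median centring, no filter on low values or the replicate number as a block, 0 genes were called over the whole table, so these calls ended there. Their summed level was 609 to 827 FPKM in Con against 1974 to 2371 in Abx, while the B cell factors Pax5 and Ebf1 were listed at 0 or near 0 in most libraries. Of 10 T cell markers 7 were tested, 6 fitted higher and 1 lower, with a summed level of 265 to 279 FPKM in Con against 458 to 521 in Abx. Cd4 was listed at 0 in 5 of the 6 libraries. Immature T cell markers numbered 9, of which 6 were tested, 3 fitted higher and 3 lower, with sums of 242 to 382 FPKM in Con against 255 to 386 in Abx. Among them Dntt was at 0.03, 0.02 and 11.6 FPKM in Con against 75.9, 140 and 156 in Abx, and Tcf7 was listed at 0 in Con and at 19.4 FPKM or more in Abx, while Rag2 was listed at 0 in all 6. Arpp21, the most abundant of them, lay the other way without overlap, at 314, 364 and 216 FPKM in Con against 45.4, 168 and 140 in Abx (-1.50, limma adjusted p = 0.264), and Ccr9 (-1.16) and Cd1d1 (-0.22) were fitted lower too. In this immature list 3 genes had all Abx libraries above Con and 1 had them below, beside 8.49% and 8.73% of all genes tested. The study itself read Tcf7, from these libraries, as a type 2 effector gene raised in Abx ILC2s. Whether the listed markers came from other cells was not tested. The part of these markers in the levels of Fkbp5 and Klf9 was not tested. Of the myeloid markers tested 2 were fitted higher and 2 lower, and the list summed to 137 to 367 FPKM in Con against 176 to 396 in Abx. Most of this was Lyz2, at 161, 363 and 101 FPKM in Con against 259, 368 and 170 in Abx. Itgam stayed at or under 0.07 FPKM. Both mast cell and basophil markers tested were fitted lower, and the summed level of the list was 324 to 451 FPKM in Con against 185 to 295 in Abx. All 4 erythroid markers tested were fitted lower, with sums of 6422 to 14823 FPKM in Con against 3166 to 8659 in Abx, and of 4 stromal and epithelial markers 2 were fitted higher and 2 lower, with sums of 32.05 to 1162 FPKM against 70.5 to 148.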

How the data were processed

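SMART-seq v4 cDNA of 1000 sorted cells was sequenced for 3 Con and 3 Abx libraries. Per the study's methods, the authors trimmed reads with Cutadapt 1.9, mapped them with HISAT2 2.0.4 and estimated levels with StringTie 1.3.4d, and deposited them as FPKM for 55394 genes. A human Ensembl annotation is named there while the identifiers are mouse, and the submitters' processing notes also list Bowtie 0.12.2, mm8 and mm9, so the build behind the values is not settled. Of the identifiers 55134 are in GENCODE M21 (GRCm38), from which gene positions were taken. The authors compared groups with DESeq2, which needs counts, so that step was not repeated. FPKM values of low genes with a single transcript did not fall clearly on steps of whole reads, so depth is unknown. At the best of the step sizes tried, 24.6% to 27.3% of them lay within 0.1 of a step. For a step size fixed beforehand the share by chance is 20%, and for the best of many it is higher.

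Genes that reached 1 FPKM in 3 or more of the 6 libraries were tested on log2(FPKM + 1), with a pseudocount of 1 and no further scaling. The fit was limma 3.58.1 in R 4.3.3 (lmFit, eBayes with trend), two-sided, with Benjamini-Hochberg adjustment over all 8718 genes tested. Calls required a fold change over 2 with an adjusted p under 0.05. Genes under the filter got an exact permutation test over the 20 arrangements of 3 against 3. The fit was tested on simulated data. Python 3.11.15 with numpy 2.4.6 and pandas 2.3.3 made the tables.

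The 8 genes, the lists around them and the markers were chosen with earlier results of these data known. Named are the 8 genes, and of each list the 4 tested genes with the highest mean FPKM, every gene called, every gene at an unadjusted p under 0.05 and defining members at 0, with exceptions marked in the text. Marker lists are given by sums, counts and a few named genes. Alternatives were pseudocounts of 0.1 and 0.01, quantile normalization, median centring, no filter, a filter at a mean of 5 FPKM, the replicate number as a block and each library left out. The replicate numbers were not used as pairs in the main fit. The deviations of libraries with 1 number correlated at -0.020, -0.029 and 0.0097, so no shared effect of a number was seen. Such values cannot show whether libraries with 1 number were handled together. Motifs were searched on both strands as exact letters, and the palindrome also with up to 2 mismatches.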

Additional observations from a re-analysis of the deposited data

How the results depend on the processing

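The genes called over the whole table fell from 5 to 0 with a pseudocount of 0.1, a pseudocount of 0.01, median centring, no filter on low values or the replicate number as a block, and to between 0 and 2 with each library left out (2 without Con library 3 and 2 without Abx library 2, 0 without each of the other 4). It was 7 with quantile normalization and 7 with the stricter filter, which kept 4 of the 8 genes. Of the 8 genes described, 0 were called under any alternative. The median difference of the 6 genes tested ranged from -0.26 to 0.19 with 1 library left out, the latter without Con library 3, and was 0.05 with quantile normalization. The sign of Ddit4 turned with quantile normalization (0.25). That of Nr3c1, close to 0 in any case, turned with quantile normalization (-0.15) and ranged from -0.19 to 0.27 with 1 library left out, negative at -0.19 without Con library 1, -0.05 without Con library 2, -0.10 without Abx library 1 and -0.16 without Abx library 3. That of Tsc22d3 turned without Con library 3 (0.13), where the leave-one-out range was -0.83 to 0.13. Fkbp5 stayed positive, from 2.32 without Con library 2 to 4.65 with a pseudocount of 0.01, with limma adjusted p from 0.184 to 0.612. Klf9 stayed positive too, from 1.29 to 2.02, with limma adjusted p from 0.4 to 0.898. Dusp1 stayed negative, from -1.32 without Abx library 1 to -0.63 without Con library 3. The median of all genes moved from -0.06 to -0.17 with a pseudocount of 0.01. The cause of these changes was not tested. With the replicate number as a block, Fkbp5 had a difference of 3.12 and a limma adjusted p of 0.293, and no call on the 8 genes changed. Depth is unknown, so values near 0, such as those of Sgk1, carry no limit of detection.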

Other observations

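Relatives of the 8 genes gave a further view of the families. Of 29 listed relatives 22 were tested, 12 fitted higher and 10 lower, with a median difference of 0.15 and 0 called. The groups did not overlap for 3 with Abx above and 3 with Abx below, against 8.49% and 8.73% of all genes tested. At an unadjusted p under 0.05 there were 0 higher and 1 lower, against 4.74% and 6.25%. That one was Dusp10, a phosphatase of p38 and JNK, at 87.75, 96.3 and 66.85 FPKM in Con against 45.2, 28.45 and 48.65 in Abx, without overlap (-1.04, SE 0.32, limma adjusted p = 0.238). The mRNA decay factor Zfp36l1 was at 155, 179 and 252 FPKM in Con against 211, 131 and 103 in Abx (-0.43, limma adjusted p = 0.707). The Zfp36 family was thus represented by Zfp36, Zfp36l1 and Zfp36l2, with Zfp36l3 listed at 0. Klf6 had a difference of 0.48 (limma adjusted p = 0.771). The progesterone receptor gene Pgr was listed at 0 throughout. Sgk2 and Ddit4l were listed at 0 in every library.

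Ddit4 also answers to hypoxia and starvation. Of 17 genes listed for these stresses 15 matched and 11 were tested, 5 fitted higher and 6 lower, with a median of -0.64 and 0 called. Adm, which encodes the vasodilator adrenomedullin, was at 82.2, 19.3 and 54.9 FPKM in Con against 0.26, 0 and 0 in Abx (-5.40, SE 0.77, limma adjusted p = 0.0911). It was the 1 gene of the list at an unadjusted p under 0.05, beside 6.25% of all genes tested lower and 4.74% higher. Atf4, the starvation-responsive transcription factor, was at 102 FPKM in each Con library and at 158, 11.65 and 59.35 FPKM in Abx (-1.06, limma adjusted p = 0.708). The glucose transporter gene Slc2a1 had a difference of -1.20 (limma adjusted p = 0.591) and the mitophagy gene Bnip3l one of 0.22 (limma adjusted p = 0.874). Ddit4 itself stayed within 0.64 to 2.53 FPKM.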
